A study of Macaca mulatta with 6 samples.

Results

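ADCYAP1R1, the gene of PAC1, the receptor for pituitary adenylate cyclase-activating polypeptide (PACAP), was examined in rhesus monkey (Macaca mulatta) testis cultures, which the study names spermatogonial stem cells (SSCs), with the genes of its ligands and of both related receptors. The genes were taken by name and comprised ADCYAP1R1, ADCYAP1 (PACAP), VIP (vasoactive intestinal peptide), VIPR1 (the VPAC1 receptor) and VIPR2 (the VPAC2 receptor). Of these 5 genes, 4 were found among 17795 genes counted, and ADCYAP1 was not analysed here. The set was selected on the counts of ADCYAP1R1 in cultures with and without platelet-derived growth factor (PDGF), whose difference was already known. The levels of the chosen genes in that comparison are therefore a description and carry no test.

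Bulk RNA sequencing covered 6 libraries, 3 labelled PDGF (SSC PDGF+) and 3 labelled PDGFNO (SSC PDGF-, cultured without PDGF). The study's methods describe a 3D droplet culture in a serum-containing medium with GDNF, EGF, bFGF, LIF, Wnt3a and melatonin, and give no other difference between the groups. Of the spermatogonial markers read here, those other than ID4 were scarce beside fibroblast markers in all 6 libraries. The labels name the tissue as testis, and the animals, their age and strain, the days in culture and whether replicates were separate cultures are not given in the sources used here. In each group replicate 1 belonged to batch 1 and replicates 2 and 3 to batch 2. The p-values below measure the spread between these libraries, which may be technical.

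PACAP and VIP are neuropeptides of the secretin family, cut from larger precursors by prohormone convertases. PAC1 prefers PACAP, whereas VPAC1 and VPAC2 bind PACAP and VIP alike. These receptors couple mainly to the G protein Gs, which makes adenylyl cyclases raise cAMP, and cAMP activates protein kinase A and the CREB transcription factors. In the testis, developing germ cells are a known source of PACAP.

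ADCYAP1R1 lies on the minus strand at chr3:84010535-84070078 of Mmul_10, where RefSeq annotation release 103 gives it 8 transcript models. The models differ by short coding exons that some include and others skip, and the length of each is a multiple of 3. They are shown because they define the splice forms of PAC1, which a single count per gene does not tell apart. The exons of 21 and 42 bases encode part of the extracellular N-terminal domain and occur in 6 and 4 of the 8 models. A first exon of 84 bases occurs in 1 model. A second one, known as the hop cassette of the third intracellular loop, is 84 bases long in 3 models, 81 bases long in 2 and skipped in 3. The sequences are those of the reference genome (RefSeq, Mmul_10), read 5′ to 3′ on the minus strand, and the capitals mark the 3 bases that the 81-base form of the hop cassette lacks.
Exon of 21 bases, chr3:84041648-84041668: tctgggagaccgaaaccattg
Exon of 42 bases, chr3:84040521-84040562: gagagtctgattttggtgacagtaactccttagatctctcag
First exon of 84 bases, chr3:84026119-84026202: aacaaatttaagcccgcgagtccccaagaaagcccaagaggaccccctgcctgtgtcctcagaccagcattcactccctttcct
Hop cassette, chr3:84021696-84021779: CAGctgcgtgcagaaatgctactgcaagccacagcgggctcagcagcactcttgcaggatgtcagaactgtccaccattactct
A long noncoding RNA gene on the opposite strand, LOC114676947 at chr3:84040536-84042163, covers the exon of 21 bases and part of that of 42 bases. Whether counting used strand is not given in the sources used here, and without strand reads of the overlap cannot be told apart. The annotation showed no gene overlapping VIP, VIPR1 or VIPR2.

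**Figure D1:**
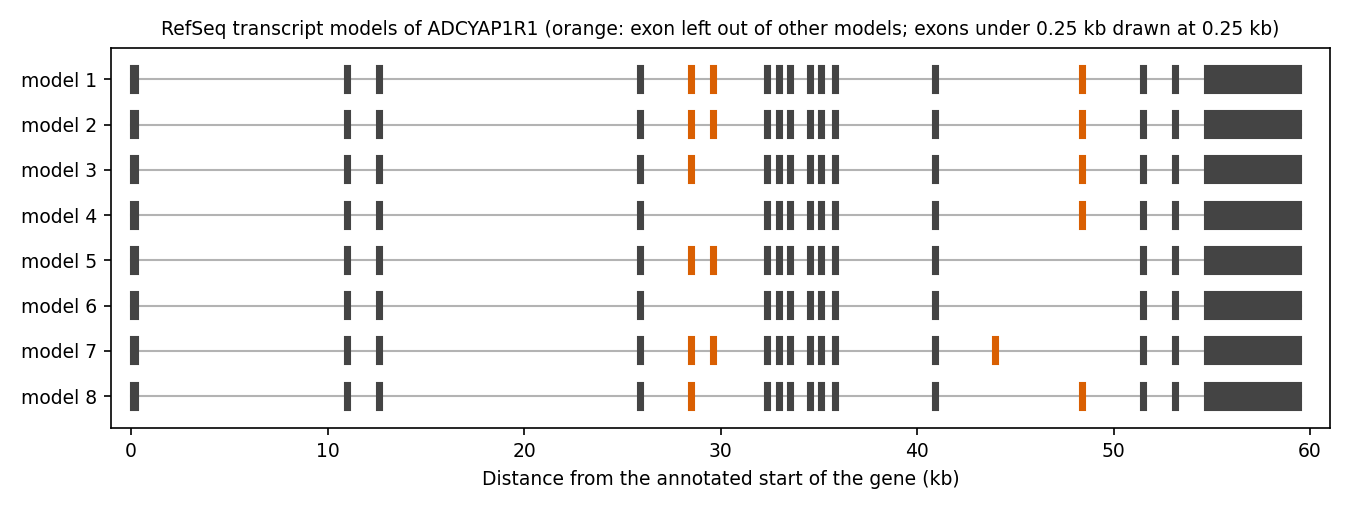
The 8 RefSeq transcript models of ADCYAP1R1, one per line, against the distance from the annotated start of the gene in kb. Boxes are exons, the shortest drawn wider than to scale, and orange boxes are the exons that other models skip, with the hop cassette as the orange box farthest to the right.

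ADCYAP1R1 was counted well above the detection limit in SSC PDGF+ and close to it in SSC PDGF-. It had 185, 162 and 133 counts in SSC PDGF+ replicates 1, 2 and 3. It had 5, 0 and 5 counts in SSC PDGF- replicates 1, 2 and 3. Every library with PDGF lay above every library without, and the groups did not overlap. In CPM (counts scaled to library sizes normalized by TMM) the replicates were at 12.5, 12.7 and 9.99 with PDGF and at 0.411, 0 and 0.490 without. The 0 of SSC PDGF- replicate 2 allows up to 3 counts, or 0.287 CPM. The group levels were 11.7 ± 1.496 CPM (SD, n = 3) and 0.300 ± 0.263 CPM (SD, n = 3).

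Over the group totals of 480 and 10 counts, the level was 38.5 times higher in SSC PDGF+ (exact Clopper-Pearson 95% interval 20.8 to 80.8). Intervals of this kind and limits for 0 counts cover counting error only and leave out the spread between libraries. PCR copies are not separate molecules, so the counting error itself may be larger. The log2 fold change fitted by edgeR was 5.22 (standard error 0.51). A mean CPM below that of ADCYAP1R1 was found for 0.173% of the 11539 genes that passed the filter on low counts in SSC PDGF- and for 31.0% in SSC PDGF+. ADCYAP1R1 passed that filter through its counts in SSC PDGF+, while genes low in both groups, such as VIPR1 and VIPR2, were removed. Its low place in SSC PDGF- was therefore largely set by the filter. In bulk libraries, fewer cells that carry a receptor and less receptor RNA per cell cannot be told apart.

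The difference was present in both batches. In batch 1 the level was 12.5 CPM with PDGF and 0.411 CPM without, a ratio of 30.4 (exact 95% interval 12.8 to 94.8). In batch 2 it was 11.3 CPM with PDGF and 0.242 CPM without, a ratio of 46.7 (exact 95% interval 19.8 to 145). The intervals of the batches overlapped widely. Within batch 2, replicate 2 was at least 35.4-fold higher with PDGF by the exact 95% interval, and 44.1-fold higher with the 0 of its control set to 3 counts in that library. Replicate 3 was 20.4-fold higher (exact 95% interval 8.52 to 63.8).

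The level of batch 2 against batch 1 rests on the same library values and is given as a description as well. With group in the model, ADCYAP1R1 in batch 2 differed from batch 1 by -0.19 on the log2 scale (standard error 0.31). Over all genes, 57.2% differed between the batches at the adjusted threshold of edgeR. The log2 effect of PDGF in batch 2 minus that in batch 1 was 0.60 (standard error 1.10), a description without a test, since the gene was chosen on its values in each batch. SSC PDGF- held 5 counts in each batch.

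**Figure D2:**
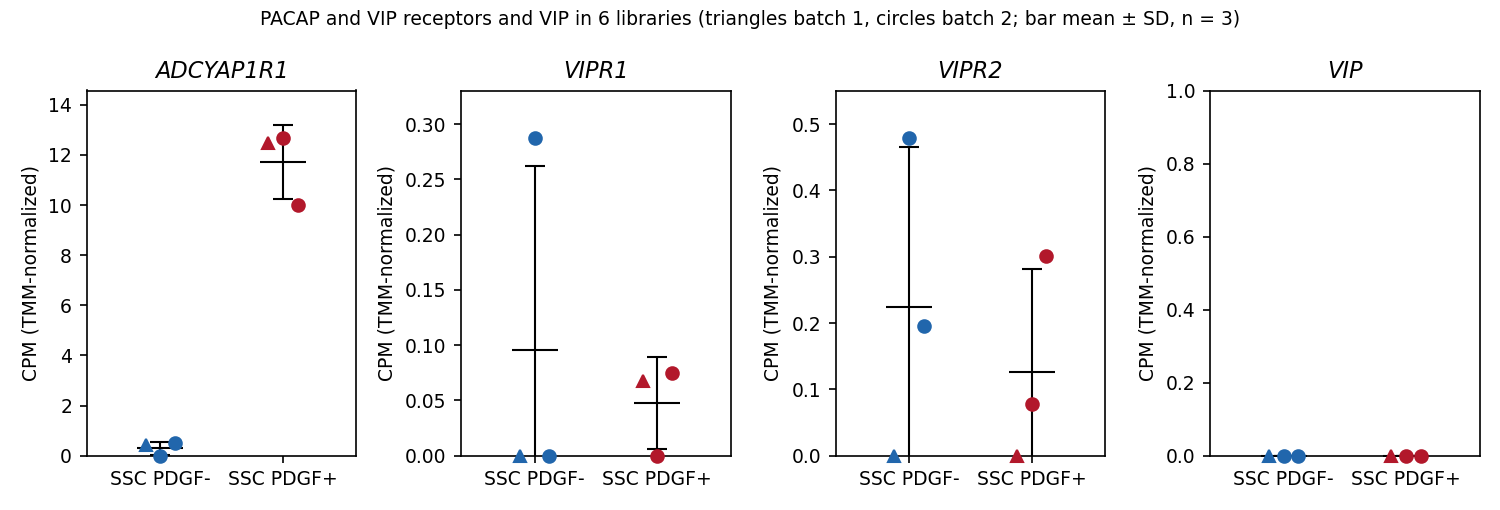
Levels of ADCYAP1R1, VIPR1, VIPR2 and VIP in CPM, each panel with its own vertical scale, for SSC PDGF- (blue) and SSC PDGF+ (red), with triangles for batch 1, circles for batch 2 and bars for the mean ± SD of 3 libraries, cut at 0. ADCYAP1R1 lies between 9.99 and 12.7 CPM with PDGF and at or below 0.490 CPM without, and VIPR1 and VIPR2 overlap between groups.

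Both VPAC receptors were near the detection limit in both groups. VIPR1, at chr2:98452997-98487722, was counted 1, 0 and 1 times with PDGF, against 0, 3 and 0 times without it. VIPR2, at chr3:184992851-185101975, was counted 0, 1 and 4 times with PDGF, against 0, 5 and 2 times without it. The groups overlapped for both genes, neither passed the filter on low counts, and the batch 1 libraries held no VIPR2 counts. The ratio of SSC PDGF+ to SSC PDGF- was 0.535 for VIPR1 (exact 95% interval 0.0447 to 4.67) and 0.573 for VIPR2 (exact 95% interval 0.143 to 2.097). A difference was not detectable for either gene at this depth.

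VIP, at chr4:58931198-58940267, had 0 counts in all 6 libraries. Over the libraries together this allows up to 3 counts, or 0.0407 CPM. With ADCYAP1 not analysed here, a ligand source within the cultures could not be assessed.

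Levels of receptors were compared per length, as CPM per kb of annotated exon. CALCRL, the calcitonin receptor-like receptor that pairs with RAMP proteins, had the highest level of 15 secretin-family receptors in SSC PDGF+, at 12.8 ± 2.91 CPM per kb (SD, n = 3). ADCYAP1R1 came next at 1.75 ± 0.223 CPM per kb (SD, n = 3), followed by PTH1R, the parathyroid hormone receptor, at 1.597 ± 0.585 CPM per kb (SD, n = 3). The gap between ADCYAP1R1 and PTH1R was smaller than the spread of either. In SSC PDGF- the order was CALCRL at 4.86 ± 0.781, PTH1R at 3.87 ± 1.45 and GLP2R, the receptor of glucagon-like peptide 2, at 0.661 ± 0.0561 CPM per kb (SD, n = 3). CALCRL and PTH1R did not differ there beyond their spread. ADCYAP1R1, at 0.0447 ± 0.0392 CPM per kb (SD, n = 3), could not be ranked against VIPR2 at 0.0536 ± 0.0573 or VIPR1 at 0.0333 ± 0.0577 CPM per kb (SD, n = 3) in SSC PDGF-.

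**Figure D3:**
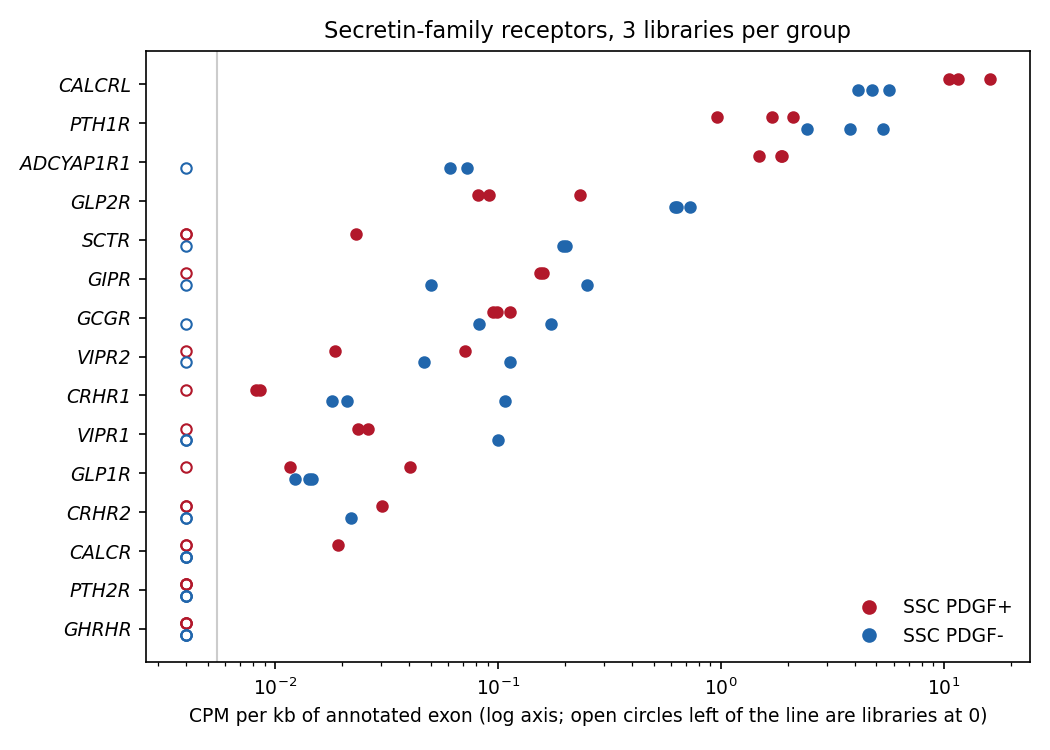
CPM per kb of annotated exon on a log axis for secretin-family receptor genes, with 1 point per library (red SSC PDGF+, blue SSC PDGF-) and libraries at 0 as open circles at the left edge, which can lie on top of each other. CALCRL and PTH1R were counted in every library, while ADCYAP1R1 lies at or above 1.49 CPM per kb with PDGF and at or below 0.0730 without.

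The pathway around these receptors was followed in 7 lists of 136 genes, of which 115 were analysed here and 91 passed the filter. After Benjamini-Hochberg adjustment over all genes, edgeR called 17 higher and 9 lower with PDGF. These were 18.7% and 9.89% of the genes tested, beside 7.61% higher and 10.7% lower over all genes (18.3% called in either direction). The lists were chosen with earlier results of these data known, so their shares are a description and no test of the pathway. The median log2 fold change was 0.21, beside 0.02 over all genes. Blocking on the replicate number gave 39 higher (42.9%) and 24 lower genes (26.4%), beside 31.1% and 29% over all genes. Without SSC PDGF- replicate 2 the count of higher genes was 11.

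Among other receptors of the family and their partners, 4 of 13 passed the filter, with 1 higher and 2 lower (with the block, 1 and 3), too few for a share to be set beside that of all genes. CALCRL was at 84.4, 61.2 and 55.7 CPM in SSC PDGF+ and 29.8, 21.6 and 25.1 CPM in SSC PDGF-. It rose with PDGF (log2 fold change 1.39, standard error 0.21, edgeR adjusted p = 0.00363). RAMP2, a partner with which CALCRL forms an adrenomedullin receptor, fell with PDGF. It was at 8.04 ± 1.27 CPM (SD, n = 3) without PDGF and 1.83 ± 0.308 CPM (SD, n = 3) with it (log2 fold change -2.12, standard error 0.26, edgeR adjusted p = 0.00153). The partners RAMP1 and RAMP3 were not analysed here. GLP2R was counted 5, 11 and 4 times with PDGF, against 28, 28 and 24 times without it (log2 fold change -2.29, standard error 0.47, edgeR adjusted p = 0.0126). This call was lost without SSC PDGF+ replicate 3 (adjusted p = 0.0596) and kept with the replicate block (edgeR adjusted p = 5.86e-04). PTH1R averaged 4.24 ± 1.56 CPM with PDGF (SD, n = 3), against 10.3 ± 3.86 CPM in SSC PDGF- (SD, n = 3). Without a block it narrowly missed the threshold (edgeR adjusted p = 0.0503). With the replicate block, and also in DESeq2, it was among the 3 genes of this list called lower. GHRHR and PTH2R, the receptors of growth hormone-releasing hormone and of the peptide TIP39, had 0 counts throughout, and those of secretin, glucagon, GLP-1, GIP, CRH and calcitonin were too low to test.

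Of 8 other family ligands analysed here, 3 passed the filter, with 1 higher and 1 lower, again too few for a share. ADM, which encodes adrenomedullin, averaged 65.1 ± 10.3 CPM with PDGF (SD, n = 3), against 65.2 ± 6.10 CPM in SSC PDGF- (SD, n = 3), and the groups overlapped (edgeR adjusted p = 0.997). PTHLH, the gene of parathyroid hormone-related protein, was counted 70, 78 and 52 times with PDGF, against 26, 20 and 27 times without it (log2 fold change 1.13, standard error 0.30, edgeR adjusted p = 0.0328). UCN, which encodes the CRH-like peptide urocortin, was counted 7, 14 and 22 times with PDGF, against 27, 51 and 70 times without it (log2 fold change -2.11, standard error 0.55, edgeR adjusted p = 0.0328). Neither call was firm without a block, while with the replicate block both passed (edgeR adjusted p = 0.00430 for PTHLH and 4.51e-05 for UCN). PTHLH lost its call with any 1 of the 6 libraries left out (adjusted p 0.0505 to 0.128), and UCN without SSC PDGF+ replicate 1 or 2 or SSC PDGF- replicate 2 or 3 (adjusted p 0.0631 to 0.121). CRH, PTH2 and IAPP, the genes of corticotropin-releasing hormone, TIP39 and amylin, had 0 counts in every library.

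Among enzymes that mature or degrade such peptides, 2 of 12 tested were higher and 1 lower. These shares were 16.7% and 8.33% beside 7.61% and 10.7% over all genes, and with the block (5 and 4 genes) 41.7% and 33.3% beside 31.1% and 29%. PCSK1, the prohormone convertase of neuroendocrine cells, was counted 271, 207 and 233 times with PDGF, against 19, 6 and 7 times without it. It rose with PDGF (log2 fold change 4.16, standard error 0.34, edgeR adjusted p = 2.61e-04). PCSK4, a germ cell convertase known to cleave the PACAP precursor, was counted 9, 8 and 12 times with PDGF, against 42, 74 and 61 times without it, and fell (log2 fold change -2.93, standard error 0.40, edgeR adjusted p = 0.00218). Spermatid markers were lower as well, with 3 of 3 tested called, too few for a share to be set beside that of all genes. Their summed level over 5 markers was 48.9 to 77.0 CPM with PDGF and 417 to 689 CPM without. Each of these markers was counted in both groups, and the part of spermatids in the fall of PCSK4 was not tested. PCSK7, a convertase of the secretory pathway, was higher (log2 fold change 0.63, standard error 0.19, edgeR adjusted p = 0.0493). Without a block the call was lost in 5 of 6 fits that left out a library (adjusted p 0.0728 to 0.153). The call stayed only without SSC PDGF+ replicate 1. With the replicate block PCSK7 passed (edgeR adjusted p = 1.00e-08). CPE, which trims the cut peptides, averaged 59.2 ± 1.99 CPM with PDGF (SD, n = 3), against 59.0 ± 5.20 CPM in SSC PDGF- (SD, n = 3). Without a block, neither CPE, the amidating enzyme PAM nor the peptidase DPP4 passed the threshold. The 4 genes called lower with the block equal in number the 4 with a negative log2 fold change, PAM among them.

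Of 19 genes of G proteins, phospholipase C and receptor desensitization tested, 2 were higher and 0 lower in edgeR (0 lower at an unadjusted p under 0.05 and 0 in DESeq2). These shares were 10.5% and 0% beside 7.61% and 10.7% over all genes. With the block, 7 were higher and 3 lower, 36.8% and 15.8% beside 31.1% and 29%. GNG11, a G protein gamma subunit, averaged 344 ± 7.33 CPM with PDGF (SD, n = 3), against 197 ± 7.45 CPM in SSC PDGF- (SD, n = 3) (log2 fold change 0.80, standard error 0.12, edgeR adjusted p = 0.00292). GNB4, a beta subunit, was also higher (log2 fold change 0.88, standard error 0.22, edgeR adjusted p = 0.0271). Without a block this call was lost in 5 of 6 fits that left out a library (adjusted p 0.0524 to 0.107). It stayed only without SSC PDGF- replicate 1. With the replicate block GNB4 passed (edgeR adjusted p = 2.36e-08). The receptor kinases GRK2, GRK3, GRK5 and GRK6 and the arrestins ARRB1 and ARRB2, which switch such receptors off, did not pass the threshold without a block. GNAS, the gene of the Gs alpha subunit, was not analysed here.

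Genes of cAMP synthesis, breakdown and action were called in both directions, with 3 of 28 tested higher and 4 lower. These shares, 10.7% and 14.3% beside 7.61% and 10.7% over all genes, were near the background, as were those with the block (11 and 9 genes, 39.3% and 32.1% beside 31.1% and 29%). Among the adenylyl cyclases, ADCY4 averaged 11.4 ± 2.17 CPM with PDGF (SD, n = 3), against 5.09 ± 1.11 CPM in SSC PDGF- (SD, n = 3) (log2 fold change 1.16, standard error 0.25, edgeR adjusted p = 0.0162). ADCY5 was counted 34, 67 and 56 times with PDGF, against 121, 134 and 119 times without it (log2 fold change -1.56, standard error 0.31, edgeR adjusted p = 0.0116). ADCY1 was counted 25, 30 and 32 times with PDGF, against 48, 71 and 78 times without it (log2 fold change -1.51, standard error 0.33, edgeR adjusted p = 0.0170). Thus 1 cyclase rose and 2 fell. ADCY6 averaged 136 ± 16.6 CPM with PDGF (SD, n = 3), against 151 ± 0.944 CPM in SSC PDGF- (SD, n = 3). It did not pass the threshold without a block. Among phosphodiesterases, which break down cyclic nucleotides, PDE3A (log2 fold change 0.94, standard error 0.22, edgeR adjusted p = 0.0235) and PDE7B (log2 fold change 0.78, standard error 0.19, edgeR adjusted p = 0.0230) were higher. PDE4D, which is specific for cAMP, was lower (log2 fold change -1.57, standard error 0.30, edgeR adjusted p = 0.00998), as was PDE7A, named after its values were seen (log2 fold change -0.68, edgeR adjusted p = 0.0341). The protein kinase A subunit genes PRKACA, PRKACB, PRKAR1A, PRKAR2A and PRKAR2B did not pass the threshold without a block.
Some of these calls were lost with any 1 of several libraries left out, in fits with no block. With the replicate block ADCY4, ADCY1, PDE3A and PDE7B passed (edgeR adjusted p 3.56e-09 to 1.54e-04). Leaving out SSC PDGF+ replicate 2 or 3 or SSC PDGF- replicate 2 ended the call of ADCY4 (log2 fold change 1.06 to 1.09, adjusted p 0.0640 to 0.0664). For ADCY1 the omission of any 1 library of batch 2 did so (log2 fold change -1.59 to -1.31, adjusted p 0.0519 to 0.0696). For PDE3A it was the omission of SSC PDGF- replicate 2 or 3 (log2 fold change 0.84 to 0.91, adjusted p 0.0911 to 0.0958), and for PDE7B that of the same libraries or of SSC PDGF+ replicate 3 (log2 fold change 0.74 to 0.85, adjusted p 0.0530 to 0.0931).

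The list of CREB factors and genes induced by cAMP held 7 higher and 1 lower genes among 20 tested. These shares were 35.0% and 5%, beside 7.61% and 10.7% over all genes, and the median log2 fold change was 0.47. As this list was chosen with earlier results of these data known, its shares are a description. With the block, 11 were higher and 3 lower, 55% and 15% beside 31.1% and 29%. VGF, the precursor of secreted neuroendocrine peptides, was at 62.2, 115 and 124 CPM in SSC PDGF+ and 8.21, 19.4 and 16.1 CPM in SSC PDGF- (log2 fold change 2.79, standard error 0.37, edgeR adjusted p = 0.00209). NR4A2, an orphan nuclear receptor, was at 22.3, 20.3 and 20.5 CPM with PDGF and 3.78, 4.02 and 5.98 CPM without (log2 fold change 2.20, standard error 0.23, edgeR adjusted p = 0.000627). FOSB, a subunit of the AP-1 factor, was counted 23, 36 and 30 times with PDGF, against 2, 3 and 4 times without it (log2 fold change 2.95, standard error 0.50, edgeR adjusted p = 0.00566). In all 3 genes every library with PDGF lay above every library without. They were named for the size of their change among called genes, so this separation is a description. NR4A3, SCG2, BDNF and FOS, named after their values were seen, rose by 1.25 to 1.86 on the log2 scale. SIK1, a kinase that cAMP induces and that restrains CREB coactivators, fell from 35.5 ± 3.45 CPM (SD, n = 3) without PDGF to 19.3 ± 2.14 CPM (SD, n = 3) with it (log2 fold change -0.88, standard error 0.17, edgeR adjusted p = 0.00929).
The factors themselves, CREB1 and CREM, and the coactivators CRTC1, CRTC2 and CRTC3 did not pass the threshold without a block. CREM averaged 79.6 ± 10.4 CPM with PDGF (SD, n = 3), against 80.4 ± 14.7 CPM in SSC PDGF- (SD, n = 3). Growth factors are also known to induce several genes of this list, such as FOS, FOSB and the NR4A genes, so that the list is not specific to cAMP.

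PACAP and VIP are known to stimulate steroid production, and of 5 steroidogenic genes tested 1 was higher and 0 lower in edgeR (1 lower at an unadjusted p under 0.05 and 0 in DESeq2). With the block, 3 were higher and 1 lower, and 5 genes are too few for a share. CYP19A1, the aromatase that makes oestrogens, was at 55.7, 43.5 and 42.1 CPM with PDGF and 21.4, 12.7 and 17.5 CPM without (log2 fold change 1.45, standard error 0.23, edgeR adjusted p = 0.00404). STAR, which carries cholesterol into mitochondria, averaged 296 ± 34.5 CPM with PDGF (SD, n = 3), against 234 ± 19.5 CPM in SSC PDGF- (SD, n = 3). Without a block it did not pass the threshold (log2 fold change 0.34, standard error 0.14, edgeR adjusted p = 0.136). NR5A1 was the 1 tested gene of this list with a negative log2 fold change (-0.55, standard error 0.19, edgeR adjusted p = 0.0870). CYP11A1, which starts steroid synthesis from cholesterol, had 0 counts in every library.

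**Figure D4:**
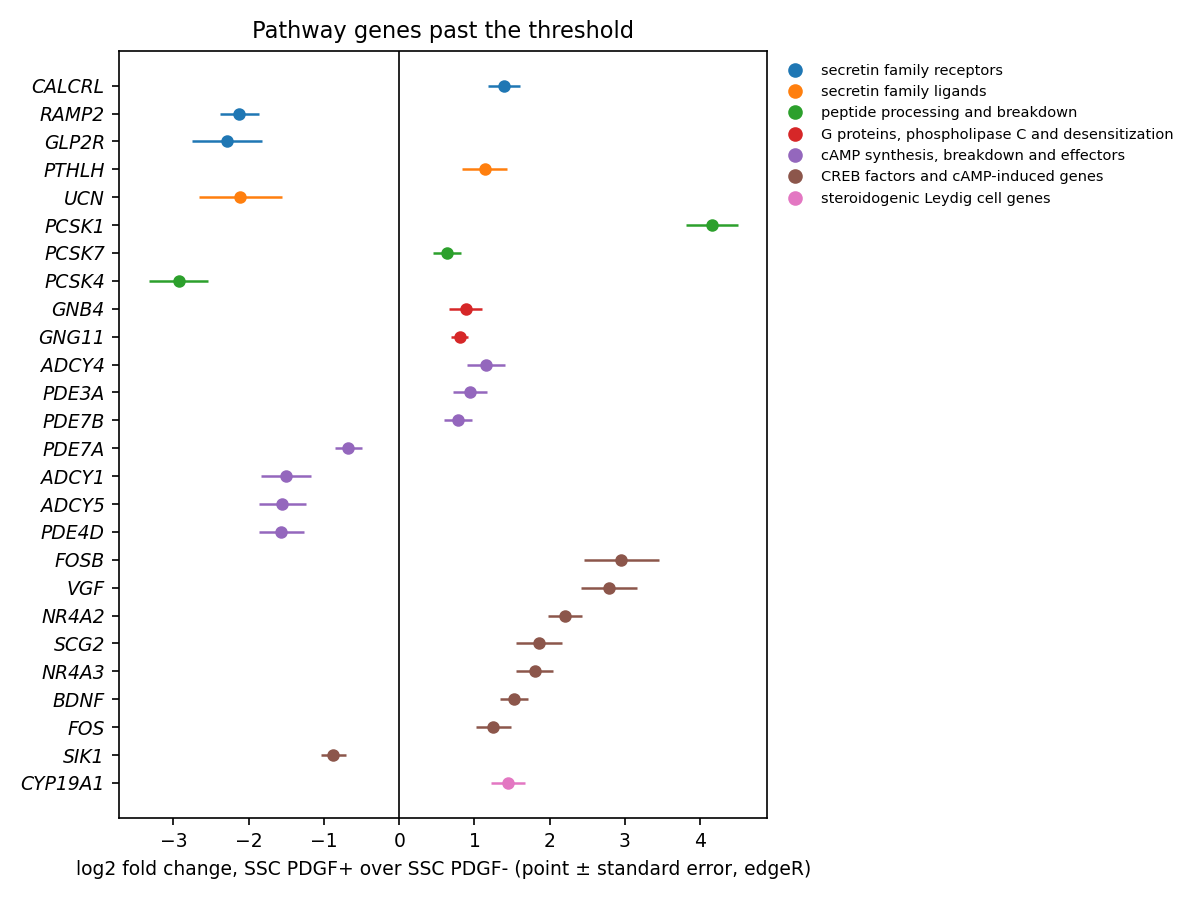
Log2 fold changes of SSC PDGF+ over SSC PDGF- with standard errors from edgeR for the pathway genes past the adjusted threshold, coloured by list. PCSK1 at 4.16 lies farthest to the right, and SIK1 at -0.88 is the one cAMP-induced gene to the left of 0.

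**Figure D5:**
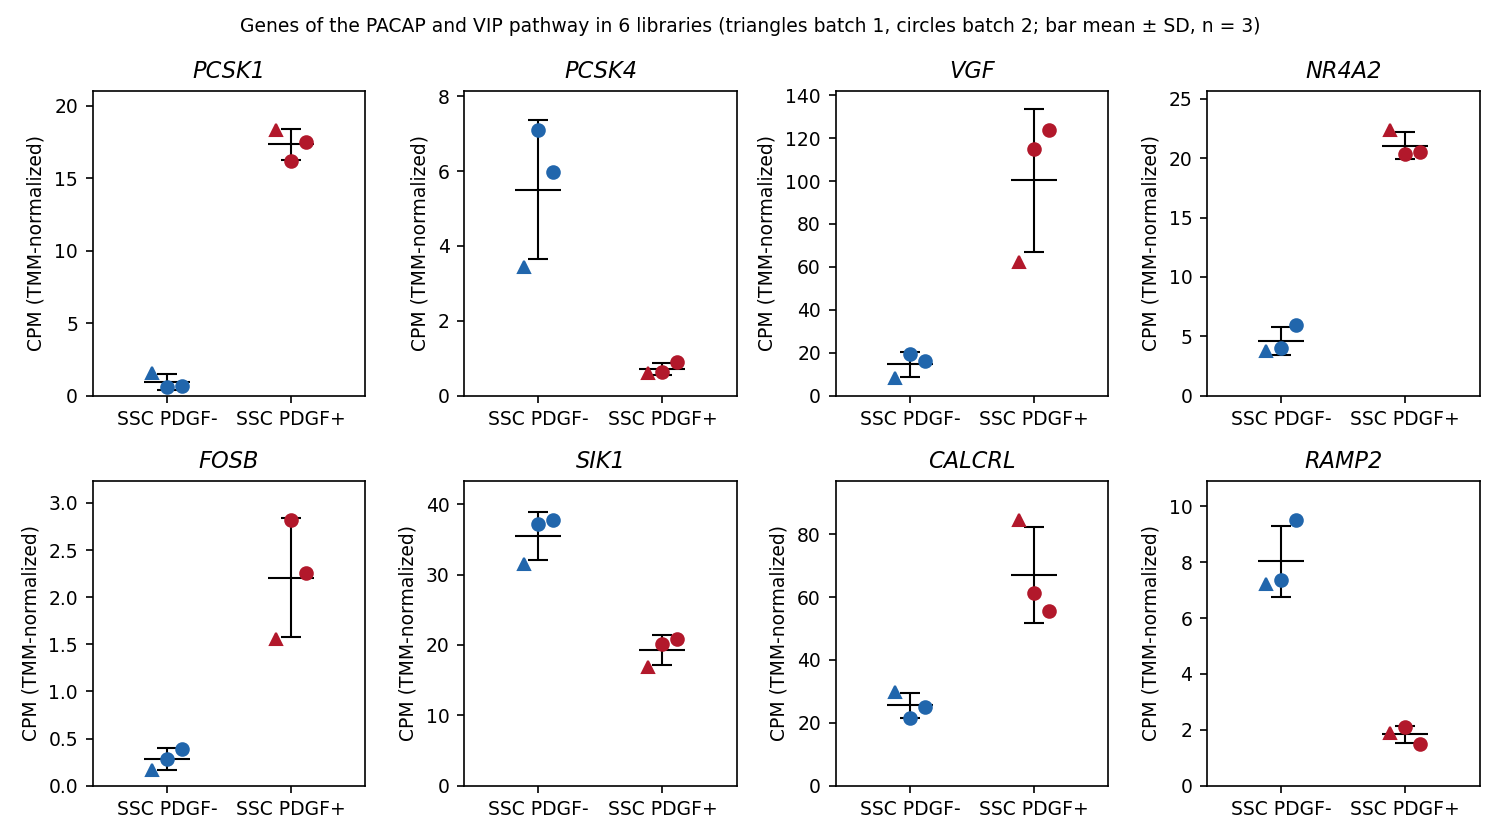
CPM in each library for pathway genes, with SSC PDGF- in blue, SSC PDGF+ in red, triangles for batch 1, circles for batch 2 and bars for the mean ± SD of 3 libraries. VGF is lowest in the batch 1 library of each group, at 62.2 CPM with PDGF and 8.21 CPM without.

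The genes whose levels were most like those of ADCYAP1R1 were ranked by Pearson's r of log2 CPM over the 6 libraries, among 11167 genes. They were ASB4, a ubiquitin ligase adaptor (r = 0.999), RNF183, a ubiquitin ligase (0.997), FLT1, a VEGF receptor (0.997), ST6GALNAC3, a sialyltransferase (0.996), and MTO1, which modifies mitochondrial tRNA (0.995). The points share the division by PDGF, and 359 genes had an r above 0.95. ASB4 was counted 58, 52 and 47 times with PDGF, against 6, 2 and 6 times without it. FLT1 was counted 581, 397 and 503 times with PDGF, against 29, 6 and 22 times without it. Like ADCYAP1R1, both had their lowest count in SSC PDGF- replicate 2. MTO1 had a log2 fold change of 0.38, so a high r did not need a large difference.

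Total counts per library ranged from 10593805 to 14102697. Markers of cell types were read beside the receptor. Each list held too few tested genes for a share to be set beside the 7.61% higher and 10.7% lower over all genes. The 5 undifferentiated spermatogonial markers analysed summed to 129 to 136 CPM with PDGF and 152 to 179.8 CPM without, nearly all of it ID4, and 1 of 3 tested was lower (DDX4). GFRA1, the GDNF receptor that marks these cells, was counted 3, 0 and 2 times with PDGF, against 9, 2 and 7 times without it. The 5 fibroblast markers summed to 11071 to 16108 and 10409 to 12934 CPM (1 of 5 lower, PDGFRA). Spermatogonial markers other than ID4 were thus scarce beside fibroblast transcripts in cultures labelled as SSCs. The spermatid markers, at 48.9 to 77.0 CPM with PDGF and 417 to 689 CPM without, were also well below the fibroblast markers. Pericyte markers summed to 121 to 199 CPM with PDGF and 75.4 to 129 CPM without, with 1 of 4 tested higher (RGS5, log2 fold change 1.94, standard error 0.35, edgeR adjusted p = 0.00781). Myoid and smooth muscle markers summed to 369 to 478 and 696 to 908 CPM (2 of 5 lower), and Schwann cell markers to 32.2 to 44.9 and 66.7 to 98.5 CPM (1 of 2 lower).
Ranges of the groups overlapped for neuronal markers, at 63.6 to 94.3 and 63.8 to 105 CPM, for Leydig cell markers, at 265 to 333 and 232 to 269 CPM with CYP11A1 at 0 (1 of 4 lower, IGF1), and for endothelial markers, at 7.96 to 10.8 and 6.73 to 9.87 CPM. They also overlapped for Sertoli cell markers, at 2.77 to 5.47 and 4.90 to 5.17 CPM, for T cell markers, at 0.526 to 1.08 and 0.287 to 0.821 CPM with CD3E at 0, and for myeloid markers, at 16.4 to 18.6 and 11.3 to 17.7 CPM with PTPRC at 0. Of the neuronal, endothelial, Sertoli, T cell and myeloid markers that passed the filter, edgeR called 0 and DESeq2 called 0. In edgeR 1 had an unadjusted p under 0.05 (PECAM1). Below the filter, the Sertoli marker FATE1 was counted 0, 0 and 0 times with PDGF, against 14, 17 and 2 times without it. The neuronal ELAVL3 was counted 3, 5 and 3 times with PDGF, against 0, 0 and 1 times without it. For ELAVL4 these counts were 1, 0 and 1, against 1, 7 and 23. The Sertoli markers AMH and SOX9 were not analysed here. The part of any of these cell types in the level of ADCYAP1R1 was not tested.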

How the data were processed

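Bulk RNA from 6 libraries, 3 per group, was analysed. The authors deposited expected counts per gene without normalization, in which 34 values of 13 genes were not whole, and these were rounded where whole counts had been planned for. The submitters' processing notes list fastp, HISAT2 2.1.0, SAMtools and featureCounts 2.0.1, and the builds Mmul_10 and Mmul_8.0.1 without their roles. Of 2686 LOC identifiers counted, 2682 occur in RefSeq annotation release 103 of Mmul_10, which gave positions, exon lengths and sequences.

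Genes were filtered with filterByExpr, scaled by TMM and tested with the quasi-likelihood test of edgeR 4.0.16 in R 4.3.3, with no block, at a Benjamini-Hochberg adjusted p under 0.05 over all genes. The standard error is the absolute log2 fold change over the square root of F. Same-numbered libraries share a batch by the labels and deviated together (r = 0.73, 0.35 and 0.37), but so did differently numbered ones of batch 2 (0.39 and 0.36). Replicates 2 and 3 of a group differed by more than counting noise (chi-square per degree of freedom 3.36 and 3.64). Alternatives were DESeq2 1.42.0, RLE or no scaling factors, no count filter or at least 10 counts in every library, a block for the replicate number, a batch term, the batch 2 libraries by themselves, each library left out, and replicates 2 and 3 summed. The procedure was tested on simulated counts.

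The members and lists were chosen with earlier results of these data known. Named were the members, up to 3 called genes per list and direction by size of change, the markers and the 5 genes of highest r.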

Additional observations from a re-analysis of the deposited data

How the results depend on the processing

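The log2 fold change of ADCYAP1R1 lay between 4.68 (without SSC PDGF- replicate 2, its library at 0) and 5.68 (without SSC PDGF- replicate 3) over the alternatives that kept the gene, and was 5.23 with the replicate block. A minimum of 10 counts in every library removed it. Without single libraries the log2 ratio ranged from -1.57 to -0.36 for VIPR1, which gave no value without SSC PDGF- replicate 2, and from -2.56 to 0.45 for VIPR2, whose sign turned without that library. With the replicate block and no count filter these were -0.48 and -0.75. Under other scalings, without a count filter and in DESeq2 the batch term of ADCYAP1R1 was -0.29 to -0.19 on the log2 scale. The difference of its PDGF effects between batches was 0.55 to 0.61.

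Pathway genes higher with PDGF numbered 39 with the replicate block, 39 with batch as a term, 36 in batch 2 alone, 9 with replicates 2 and 3 summed (chosen after seeing the data) and 11 to 21 with a library left out, the fewest without SSC PDGF- replicate 2. Those lower numbered 24, 23, 19 and 4 in the same order, 14 in DESeq2 and 6 to 13 with a library left out. Summing left 4 samples, and otherwise the cause was not tested. Of 21 named pathway genes, 8 kept their call under every alternative that tested them, 13 lost it under at least 1 and 0 changed sign. The fits that left out a library carried no block or batch term. With the replicate block none of the 21 lost its call. PDE4D, ADCY5, SIK1 and GNG11 lost it with replicates 2 and 3 summed alone (adjusted p 0.0744 to 0.138). Depth limits VIPR1, VIPR2, VIP and the other genes near 0, as 3 counts in a library equal 0.203 to 0.294 CPM.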

Other observations

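The promoter of ADCYAP1R1 is shown because its gene differed between the groups. The window covers the 250 bases before the annotated start, chr3:84070079-84070328 on the minus strand of Mmul_10 (RefSeq), and capitals mark the motif found.
ADCYAP1R1 promoter: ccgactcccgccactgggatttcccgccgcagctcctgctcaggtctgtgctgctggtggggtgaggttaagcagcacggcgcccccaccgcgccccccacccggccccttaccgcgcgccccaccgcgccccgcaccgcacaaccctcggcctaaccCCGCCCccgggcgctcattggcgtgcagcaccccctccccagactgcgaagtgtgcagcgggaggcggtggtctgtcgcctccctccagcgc
On both strands it held 1 GC box, GGGCGG, which 43.7% of 20782 promoters of the same length hold. The cAMP response element TGACGTCA (1.47% of promoters), its part TGACG (19.8%, which overlaps the former), the AP-1 site TGANTCA (5.15%) and the hypoxia core ACGTG (18.3%) were not among the letters of this window. The windows of VIPR1 and VIPR2 held 3 and 4 GC boxes, and that of VIPR1 also held 1 TGACG.

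The genes next to ADCYAP1R1 on chromosome 3 were read as well. GHRHR, 69397 bases away, had 0 counts in all 6 libraries, as had NEUROD6, ITPRID1 and PPP1R17 on the other side. MINDY4, a deubiquitinase gene, had 144, 145 and 162 counts with PDGF, against 105, 121 and 117 without it (log2 fold change 0.07, edgeR adjusted p = 0.841). AQP1 was not analysed here.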
